A study of Drosophila melanogaster with 6 samples.

Results

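Small nucleolar ribonucleoproteins (snoRNPs) are particles in which a guide RNA and a few proteins modify ribosomal RNA, and 6 genes for their proteins were followed in Drosophila melanogaster ovaries. The members were chosen by symbol and not by a rule on their values, though earlier results of these data were known. They are Fib, nop5, Nop56 and hoip for the 4 proteins of the box C/D particle, and NHP2 and Nop60B for 2 proteins of the box H/ACA particle. Each symbol matched 1 of the 17457 features in the deposited table, and all 6 genes passed the filter that left 7855 features for testing. PolyA RNA was sequenced from 3 control ovary samples and 3 samples in which the germline overexpressed Sam-S, the gene for S-adenosylmethionine synthetase. In the overexpression group, the nanos-gal4 driver was brought together by crossing with a UASp-Sam-S construct. In the control group, nanos-gal4 flies were crossed with flies whose docking sites for that construct were empty, so every sample carried the same driver. The nanos-gal4 driver acts in germline cells, while the ovary also holds somatic follicle cells, so the values mix germline and soma. In such bulk samples, fewer cells of a type and less RNA per cell cannot be told apart. The labels give no age and do not say how many flies made up a sample. Because nothing says that the samples came from separate groups of animals, the p-values measure only the spread between these samples.

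Box C/D particles add a methyl group to the 2′ hydroxyl of chosen ribosomal RNA nucleotides, and the methyl group comes from S-adenosylmethionine, the product of Sam-S. Box H/ACA particles turn chosen uridines into pseudouridine, a reaction that does not use S-adenosylmethionine. In the ovary, nurse cells make large amounts of ribosomes for the growing oocyte, and this work takes place in the nucleolus where these particles reside.

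The Sam-S level checks the labels. Transcripts of Sam-S, on chromosome 2L at 106903 to 114432, stood at 496.94, 512.27 and 483.27 TPM in control replicates 1, 2 and 3 and at 1571.93, 1442.66 and 1540.70 TPM in the overexpression replicates. TPM is a transcript level scaled by transcript length and to the same total in every sample, and with TPM alone the sequencing depth is unknown. Between 7786 and 7911 features reached 1 TPM in each sample. Of the germline markers, 6 of 6 passed the filter, with a summed level from 2028 to 2077 TPM in controls and from 2086 to 2139 TPM with overexpression. Their directions differed. The means of osk (954.6 TPM in controls, 1041 TPM with overexpression), aub and bam were higher with overexpression, and those of nos, otu and vas were lower. The follicle cell markers summed to between 6898 and 8270 TPM in controls and between 6085 and 10492 TPM with overexpression, with 5 of 6 past the filter. Most of that sum came from Vm26Aa and Yp1, with control means of 5282 and 2068 TPM. Muscle markers summed to at most 74.9 TPM, haemocyte markers to at most 3.03 TPM and fat body markers to at most 0.07 TPM, with Fbp1 listed at 0 in every sample. Of the 22 markers in these 5 lists 16 were tested, 0 changed in limma at an adjusted p under 0.05 and 2 had an unadjusted p under 0.05, beside 0.280% and 6.58% of all 7855 tested features, and the part of cell composition in the results was not tested.

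Expression of the 6 snoRNP protein genes was high and close to equal in the 2 groups. Of the 6, 0 changed in limma at an adjusted p under 0.05, adjusted over all 7855 features, where 22 features passed (0.280%). At an unadjusted p under 0.05 there was 1, nop5, beside 517 of all tested features (6.58%). The log2 fold changes (overexpression over control, on the log2(TPM + 1) scale) ran from -0.02 for NHP2 to 0.13 for nop5, with a median of 0.03. Over all tested features the median was -0.01. In the authors' deposited table, all 6 genes had an FDR of 1, and 122 features had an FDR under 0.05 (0.699%). The log2 fold changes of the authors' deposited table ran from -0.02 for NHP2 to 0.13 for nop5.

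**Figure D1:**
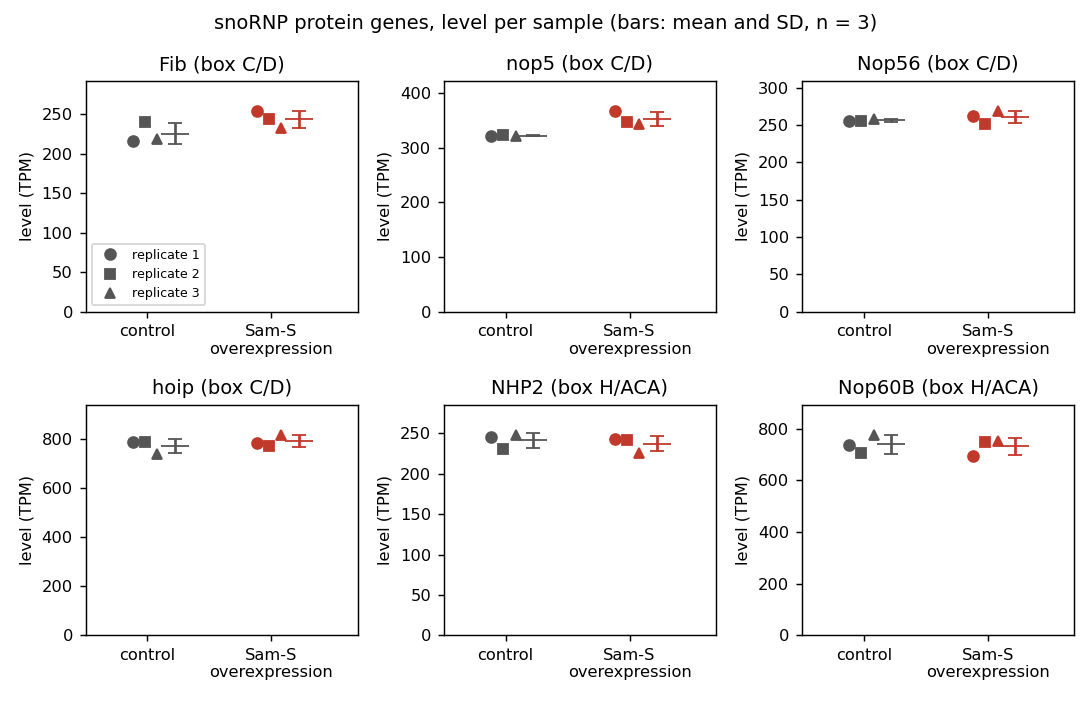
Level in TPM (vertical axes, starting at 0) of each snoRNP protein gene in the 3 control samples (grey) and the 3 Sam-S overexpression samples (red), with replicates marked by shape and the mean ± SD beside them. The nop5 values of the overexpression samples, from 343.16 to 367.22 TPM, lie above the control values, and for the other 5 genes the groups overlap.

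Fib encodes fibrillarin, the subunit of the box C/D particle that carries the methyltransferase activity. The gene (FBgn0003062) lies on chromosome 2R, 23072909 to 23074725, minus strand. Its level was 216.39, 240.50 and 219.04 TPM in control replicates 1, 2 and 3 and 253.68, 243.57 and 232.66 TPM in the overexpression replicates. The groups overlapped, because control replicate 2 was above overexpression replicate 3. The control mean was 225.3 ± 13.2 TPM and the overexpression mean 243.3 ± 10.5 TPM (SD, n = 3). The fitted log2 difference was 0.11 (SE 0.06, limma, adjusted p = 0.851). Its 95% confidence interval ran from -1.35% to 18.2% on the scale of the fit. Within batches 1, 2 and 3, each with 1 sample of either group, the overexpression value was 17.2%, 1.28% and 6.22% above the control.

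The genes nop5 and Nop56 encode paired scaffold proteins of the box C/D particle; nop5 is the fly counterpart of the protein called Nop58 in yeast and mammals. For nop5 (FBgn0026196, chromosome 2L, 6916753 to 6918743, minus strand) the control replicates were at 322.52, 324.35 and 320.82 TPM and the overexpression replicates at 367.22, 347.68 and 343.16 TPM. The overexpression values were all above the control values. Such a lack of overlap, in either direction, was seen in 931 of the tested features (11.9%), and among the members in 1 of 6. The means were 322.6 ± 1.77 TPM and 352.7 ± 12.8 TPM (SD, n = 3), and the control values of nop5 had the smallest spread relative to their mean of the 6 members, 0.547%. Its fitted log2 difference was 0.13 (SE 0.04), and the difference did not pass the threshold (limma, adjusted p = 0.578, unadjusted p = 0.0174). The 95% interval ran from 2.04% to 17.0% and the within-batch differences were 13.9%, 7.19% and 6.96%. The unadjusted p was 0.0558 with the batch as a block, 0.0532 without control replicate 1 and 0.0517 without control replicate 3.

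For Nop56 (FBgn0038964, chromosome 3R, 22419095 to 22421068, minus strand) the control replicates were at 255.16, 255.18 and 258.21 TPM and the overexpression replicates at 262.09, 251.63 and 268.41 TPM. The lowest and the highest of the 6 values were both overexpression samples, so the groups overlapped. The means were 256.2 ± 1.76 TPM and 260.7 ± 8.47 TPM (SD, n = 3), and the fitted log2 difference was 0.02 (limma, adjusted p = 0.966). The 95% interval of the difference ran from -4.94% to 8.86%.

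The gene hoip encodes the small RNA-binding protein that recognises the kink-turn of box C/D guide RNAs, a protein known as Snu13 in yeast that is also part of the spliceosome's U4 particle. For hoip (FBgn0015393, chromosome 2L, 9699791 to 9700459, plus strand) the control replicates were at 788.49, 790.82 and 740.97 TPM and the overexpression replicates at 786.33, 773.94 and 818.46 TPM. The groups overlapped, with the lowest value in control replicate 3 and the highest in overexpression replicate 3. The means were 773.4 ± 28.1 TPM and 792.9 ± 23.0 TPM (SD, n = 3). The fitted log2 difference was 0.04 (limma, adjusted p = 0.953), with a 95% interval from -4.77% to 10.4%. Within batches the difference was -0.274%, -2.13% and 10.5%, so its sign was not the same in the 3 batches.

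Nop60B encodes the fly counterpart of dyskerin, the pseudouridine synthase of the box H/ACA particle. For Nop60B (FBgn0259937, chromosome 2R, 24174877 to 24186343, plus strand) the control replicates were at 736.77, 705.04 and 776.62 TPM and the overexpression replicates at 695.02, 746.93 and 754.40 TPM. The groups overlapped over most of their range. The means were 739.5 ± 35.9 TPM and 732.1 ± 32.3 TPM (SD, n = 3), and the fitted log2 difference was -0.01 (limma, adjusted p = 0.985). Its 95% interval ran from -9.11% to 7.87%. NHP2 encodes a small RNA-binding protein of the same particle that belongs to the same protein family as the hoip product. For NHP2 (FBgn0029148, chromosome 3L, 14801328 to 14802168, minus strand) the control replicates were at 245.02, 230.67 and 248.11 TPM and the overexpression replicates at 243.37, 241.96 and 226.12 TPM. The lowest value was an overexpression sample and the highest a control, with the others interleaved. The means were 241.3 ± 9.31 TPM and 237.2 ± 9.58 TPM (SD, n = 3). The fitted log2 difference was -0.02 (limma, adjusted p = 0.968), with a 95% interval from -9.28% to 6.51%.

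**Figure D2:**
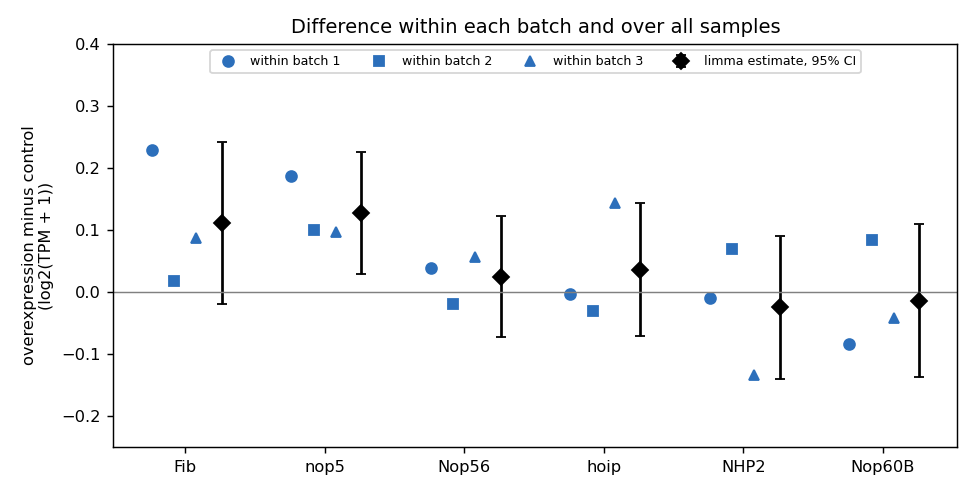
Difference between overexpression and control on the log2(TPM + 1) scale for each snoRNP protein gene (horizontal axis), within each labelled batch (blue) and as the limma estimate over all 6 samples with its 95% confidence interval (black). The Fib and nop5 differences lie above 0 in all 3 batches, and the other 4 genes have batches on either side of 0; the nop5 interval is the only one of the 6 that leaves out 0, before adjustment.

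The differences were above 0 in all 3 batches for 2 of the 6 members, Fib and nop5, and for 934 of all tested features (11.9%). All 4 box C/D members had a fitted difference above 0, with a median log2 fold change of 0.07. Both box H/ACA members had one below 0, with a median of -0.02. This split did not extend to further proteins of the particles. The H/ACA core genes CG4038 and CG7637 had log2 fold changes of 0.12 and 0.04, and U3-55K, of the U3 box C/D particle, had -0.01. Over all tested features, 3459 lay above 0 and 4396 below. None of the differences of the 6 members passed the test. The sign of NHP2 and Nop60B turned under quantile normalization and when certain single samples were left out, but not under trimmed mean scaling. In the authors' deposited table the log2 fold change of Nop60B was 0.0063, above 0, and that of NHP2 was -0.019, below 0. Summed over the 4 box C/D genes the control level was 1577 ± 36.2 TPM and the overexpression level 1650 ± 28.6 TPM (SD, n = 3), and the sums did not overlap, since the highest control sum was 1611 TPM and the lowest overexpression sum 1617 TPM. Of the 4 genes, nop5 added 30.1 TPM to that difference, hoip 19.5 TPM, Fib 17.99 TPM and Nop56 4.53 TPM. The box H/ACA sums overlapped, at 980.7 ± 44.5 TPM and 969.3 ± 27.1 TPM (SD, n = 3). The sums over all 6 genes did not overlap either, at 2558 ± 10.1 TPM and 2619 ± 21.1 TPM (SD, n = 3), with a highest control sum of 2564 TPM and a lowest overexpression sum of 2606 TPM. Among single features, the groups did not overlap in 11.9% of those tested, and no such share was computed for sums. The box C/D sum and the sum over all 6 genes both hold nop5, whose own groups did not overlap, so they are no separate result. These sums were given no test, because the members were chosen with earlier results of these data known.

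By the deposited TPM values the members fell into a high and a low tier. TPM is per length, so this order depends on the transcript length used, which is least certain for Nop60B (given below). In controls hoip and Nop60B ranked 174 and 179 among the 7855 tested features, and the other 4 ranked between 439 (nop5) and 673 (Fib). The values of hoip and Nop60B overlapped in controls, with hoip the higher in 2 of 3 samples. With overexpression hoip was above Nop60B in all 3 samples. Nop60B was 2.29 times as high as nop5, the next gene in the control order, and nop5 was 1.26 times as high as Nop56. In controls nop5, Nop56 and NHP2 followed each other without overlap, while NHP2 and Fib overlapped. With overexpression the values of Nop56 overlapped those of Fib, and those of Fib overlapped those of NHP2.

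Ratios between subunits within a sample do not depend on a scaling factor common to all features of that sample. Their size does depend on the transcript lengths used. Of 8 such ratios computed, the groups did not overlap in 1, nop5 over Nop56. It was 1.26, 1.27 and 1.24 in the control replicates and 1.40, 1.38 and 1.28 in the overexpression replicates. This ratio was singled out after its values were seen and shares the nop5 values given above, so it is no separate result and was given no test. The ratio of Fib to nop5 was 0.698 ± 0.04 in controls and 0.690 ± 0.01 with overexpression (SD, n = 3), and that of Nop60B to NHP2 was 3.06 ± 0.06 and 3.09 ± 0.24 (SD, n = 3), each with overlapping groups.

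The 6 genes did not follow a common profile over the samples. Among the 15 pairs of members, Pearson's r of log2(TPM + 1) over the 6 samples was above 0 for 8 and below 0 for 7, with a median of 0.05. It was highest for Fib and nop5 (0.82) and lowest for hoip and NHP2 (-0.79). These r values describe 6 samples that share the TPM scaling and the group difference. Among the members, Nop60B had the most features like it, as 804 other tested features had an r above 0.9 with it. The other 5 members had between 29 and 130 each. No such count was made for genes outside the members, so the number is not shown to be unusual. The feature most like Nop60B was CG3735 (r = 0.997).

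The mean standardized profile of the 6 members was most like those of Frl (r = 0.996), mre11 (0.987), pinta (0.982), Arc1 (0.978) and eIF3b (0.977), over 6 samples. With 7855 features and 6 samples many features reach such values, and 84 had an r above 0.9 with the mean profile. That profile ran from -0.41 to -0.23 in controls and from 0.07 to 0.46 with overexpression, so features picked as like it tend to differ between the groups. A change called among them is no separate result. Arc1, whose protein forms capsid-like particles in neurons, was the only one of these 5 that changed, beside 0.280% of all tested features. Its level went from 67.5 ± 2.49 TPM to 95.8 ± 8.41 TPM (SD, n = 3, log2 fold change 0.50, limma adjusted p = 0.0443). The level of eIF3b, for a translation initiation factor subunit, was 598.6 ± 3.27 TPM in control and 626.1 ± 10.5 TPM in overexpression samples (SD, n = 3; limma adjusted p = 0.884). The gene pinta (chromosome 3R, 22423316 to 22424929, minus strand) lies near Nop56 on the same strand.

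The length behind the TPM values sets how far the levels of different members can be compared. The authors' deposited table gives a mean log2 CPM, which is not divided by length, so that CPM over mean TPM is proportional to the transcript length used. Over 1976 single-transcript genes of at least 1000 nt and 5 TPM, 1 unit of that ratio stood for a median of 1636 nt of annotated length (quartiles 1618 and 1657). By this scale the lengths implied for Fib, nop5 and Nop56 were 1295, 1809 and 1739 nt, against annotated transcripts of 1318, 1813 and 1746 nt. For the short genes hoip and NHP2 the implied lengths were 515 and 621 nt, below annotated transcripts of 569 to 607 and 667 to 781 nt. Nop60B has 5 annotated transcripts of 971 to 3412 nt, and its implied length was 1850 nt, 54.2% of all its exons together. The nearest annotated Nop60B transcript is 1753 nt long and has 6 exons. The level of Nop60B relative to the other members depends on the length used, and values per transcript were not used here.

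**Figure D3:**
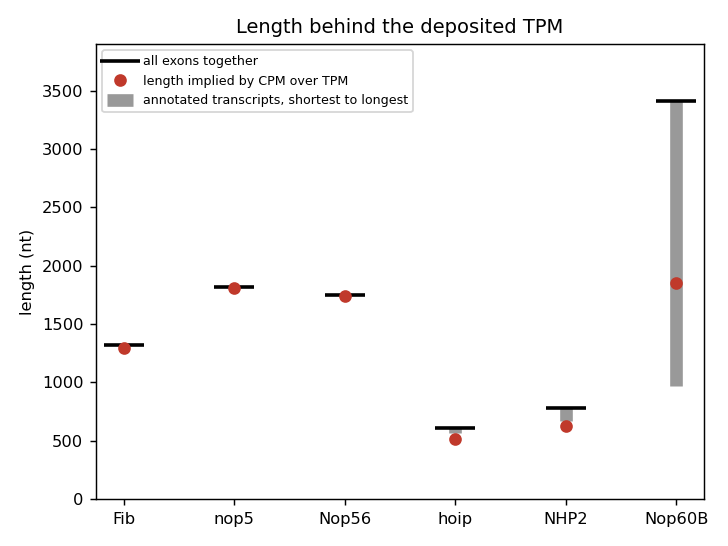
Length in nucleotides for each snoRNP protein gene, as annotated transcripts from shortest to longest (grey bar), as all exons together (black line) and as implied by CPM over TPM in the deposited table (red point). The implied length of Nop60B, 1850 nt, lies within a range of 971 to 3412 nt, and those of Fib, nop5 and Nop56 lie at their annotated length.

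The guide RNAs of these particles are small nucleolar RNAs (snoRNAs). Of the 6 genes, 3 host snoRNAs, with 9 snoRNA rows of the table inside them. Whether each of these 9 guides a modification, and in which particle, was not examined. Fib and nop5 each hold 1 in an intron, and nop5 itself lies within the span of the splicing factor gene x16 on the same strand without sharing exons. Nop60B holds 7, of which snoRNA:Psi18S-1820 is intronic and the other 6 overlap exons of the longest Nop60B transcript only. The libraries were made from polyA RNA, which snoRNAs mostly lack, and these rows were low and uneven. The highest, snoRNA:Or-CD9b (chromosome 2R, 24186062 to 24186152, plus strand), stood at 28.80, 41.26 and 0 TPM in controls and 30.25, 5.19 and 0.20 TPM with overexpression. The row with the largest log2 fold change was snoRNA:Me28S-G1083a (24184840 to 24184923), listed at 2.65, 0 and 0 TPM in controls and at 6.49, 14.12 and 16.12 TPM with overexpression. All 3 overexpression values were above the controls, and 11.9% of all tested features lacked overlap in either direction. The row did not pass (log2 fold change 3.02, limma adjusted p = 0.103), and it had an FDR of 1 in the authors' deposited table. Its control mean of 0.883 TPM was under the filter, so only its overexpression values brought it into the test. The same held for snoRNA:Psi18S-1820 (control mean 0.697 TPM) and snoRNA:Me28S-G1083d (control mean 0 TPM). Of the 9 rows, 7 were tested and 0 changed in limma, beside 0.280% of all tested features. An unadjusted p under 0.05 was seen for 1, snoRNA:Me28S-G1083a, beside 6.58% of all tested features. How reads shared by Nop60B and these rows were assigned is not stated, so their values are uncertain.

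The other proteins of the particles and of ribosomal RNA synthesis and processing were taken as 6 lists with 50 genes, of which 48 were tested. Of these 48, 0 changed in limma, beside 0.280% of all tested features, and 5 had an unadjusted p under 0.05, beside 6.58% of all tested features. Fitted differences were above 0 for 28 and below 0 for 20, beside 3459 and 4396 of all tested features, and the median log2 fold change was 0.02.

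The H/ACA particle has 2 further core proteins. The one encoded by CG4038, named Gar1 in later annotation, stood at 172.8 ± 3.71 TPM in control and 187.6 ± 1.75 TPM in overexpression samples (SD, n = 3). Its groups did not overlap, and 11.9% of all tested features lacked overlap in either direction. The fitted log2 difference of 0.12 did not pass (limma, adjusted p = 0.585, unadjusted p = 0.0207). CG7637, named Nop10 in later annotation and given here although the rule for named genes did not pick it, was at 212.7 ± 7.73 and 218.3 ± 5.003 TPM (SD, n = 3; limma adjusted p = 0.948). U3-55K, for a protein of the U3 box C/D particle that acts in early ribosomal RNA cleavage, had the lowest log2 fold change of its list, at 77.4 ± 0.999 and 76.8 ± 2.44 TPM (SD, n = 3; limma adjusted p = 0.989). CG10909, also placed in this list, was listed at 0 in all 6 samples.

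The 10 assembly and trafficking factors had a median log2 fold change of -0.04, with 2 above 0 and 8 below. Nopp140, a nucleolar chaperone of snoRNPs, had the highest, at 258.6 ± 5.46 and 269.9 ± 9.75 TPM (SD, n = 3; limma adjusted p = 0.926). Pih1D1, for a subunit of the R2TP complex that helps to assemble box C/D particles, had the lowest, at 131.5 ± 16.3 and 122.1 ± 4.47 TPM (SD, n = 3; limma adjusted p = 0.944). At an unadjusted p under 0.05 there were 0 of these 10, beside 6.58% of all tested features.

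The 18 ribosomal RNA processing and nucleolar genes had a median log2 fold change of 0.03. Of them 1 had an unadjusted p under 0.05, beside 6.58% of all tested features. That gene, Nle, for a factor in large subunit maturation, had the highest value, at 27.95 ± 1.88 and 31.6 ± 0.854 TPM (SD, n = 3; log2 fold change 0.17, limma adjusted p = 0.708). The lowest was CG4901, named ath in later annotation, an RNA helicase of germline ribosome biogenesis, at 105.2 ± 5.99 and 100.7 ± 0.590 TPM (SD, n = 3; limma adjusted p = 0.947).

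Among the 6 RNA polymerase I genes the median was 0.05, and 2 had an unadjusted p under 0.05, beside 6.58% of all tested features. The large subunit gene RpI1 had the highest log2 fold change, 0.14, at 55.0 ± 1.43 and 60.8 ± 2.97 TPM (SD, n = 3; limma adjusted p = 0.705), and the subunit gene RpI12 had the lowest, -0.04, at 56.6 ± 2.80 and 55.4 ± 9.69 TPM (SD, n = 3; limma adjusted p = 0.976). The other was RpI135, the second-largest subunit, named because of that count, at 39.7 ± 0.197 and 43.7 ± 1.37 TPM (SD, n = 3; limma adjusted p = 0.704).

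Ribosomal RNA is also methylated by enzymes that need no guide RNA. The 8 genes listed for these enzymes and their partners had a median log2 fold change of 0.05. CG3527, which carries the synonym dNEP1 and encodes a pseudouridine methyltransferase of the small subunit, had the highest, 0.20, at 51.0 ± 3.58 and 58.6 ± 2.36 TPM (SD, n = 3; limma adjusted p = 0.578, unadjusted p = 0.0184). CG9666, named Mettl5 in later annotation, which methylates an adenosine base of the small subunit RNA, had the lowest, -0.11, at 40.9 ± 2.36 and 37.7 ± 1.43 TPM (SD, n = 3; limma adjusted p = 0.884). The stand-alone pseudouridine synthases had 3 of 4 genes tested, with a median of 0.0049. RluA-2 was highest, at 27.1 ± 1.60 and 29.3 ± 3.87 TPM (SD, n = 3; limma adjusted p = 0.948), and CG4159, named Pus1 in later annotation, was lowest, at 35.5 ± 1.55 and 34.5 ± 3.42 TPM (SD, n = 3; limma adjusted p = 0.968). At an unadjusted p under 0.05 there were 0 of these 3, beside 6.58% of all tested features.

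**Figure D4:**
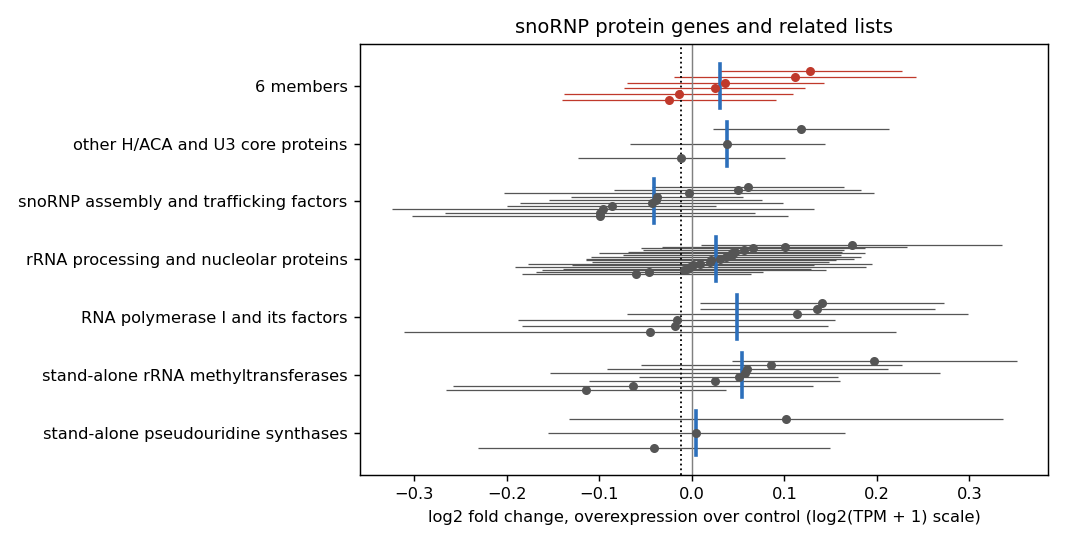
Log2 fold change (overexpression over control, log2(TPM + 1) scale) of the 6 snoRNP protein genes (red) and of the tested genes of 6 related lists (grey), each with its 95% confidence interval, with the median of each list (blue) and of all tested features (dotted, -0.01). List medians run from -0.04 for assembly and trafficking factors to 0.05 for the RNA polymerase I and the methyltransferase lists, and 0 of the genes shown passed the adjusted threshold.

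For genes of a like level, a mean of 200 to 800 TPM, the median absolute log2 fold change was 0.05 over 593 features. Their signed median was -0.04, beside 0.03 for the 6 members. The median coefficient of variation of these features was 3.85% in controls and 4.33% with overexpression. The members' control values varied by 0.547% (nop5) to 5.87% (Fib) and their overexpression values by 2.90% (hoip) to 4.42% (Nop60B).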

How the data were processed

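Per the labels' protocols, Trizol was used to extract RNA, and polyA RNA went into libraries with a stranded TruSeq kit. STAR is named in the submitters' processing notes; how reads were counted, on which build and with which gene models, is not given in the sources used here. Per the file headers, the authors deposited 1 TPM value per feature and sample, and their own comparison of the groups (log2 fold change, mean log2 CPM over samples, p-value, FDR). Coordinates are those of the deposited table, and all 6 members have the same ones in the Ensembl annotation of BDGP6.54, which gave transcripts; hoip was matched there by symbol and position. Symbols of later annotation come from RefSeq Release 6.

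All features whose mean TPM reached 1 were fitted on log2(TPM + 1) with limma 3.58.1 in R 4.3.3 (trend, group term, 6 samples, two-sided, Benjamini-Hochberg over 7855 features). The limma script was checked on simulated data with shifts larger than any fitted for the members. That check does not show whether differences as small as theirs would be found. Python 3.11.15 was used elsewhere. No count test was run, because TPM values are not counts. The labels give batch numbers equal to the replicate numbers, which pairs the samples; deviations of same-numbered samples correlated at -0.06, -0.06 and 0.21. No sample repeated another, with equal values in at most 0.382% of tested features. The rule for named genes took the members, Sam-S, genes past the threshold or else the highest and lowest per list, overlapping rows, and the 5 features most like the members' mean profile. The members and lists were chosen with earlier results of these data known. Alternatives were another pseudocount, other filters, other scalings, a batch block, no trend and leaving out each sample.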

Additional observations from a re-analysis of the deposited data

How the results depend on the processing

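Under each of the 13 alternatives, 0 of the 6 members and 0 of the list genes that could be tested changed. The log2 fold change stayed above 0 for Fib (0.08 to 0.16), nop5 (0.10 to 0.16), Nop56 (0.0035 to 0.05) and hoip (0.0055 to 0.06), and the lowest adjusted p in limma among the members was 0.461, for nop5. NHP2 turned to 0.0016 and Nop60B to 0.012 under quantile normalization. With each sample left out in turn, NHP2 ran from -0.057 to 0.0090 (above 0 without overexpression replicate 3) and Nop60B from -0.048 to 0.023 (above 0 without control replicate 3 and without overexpression replicate 1). Of all features, 22 changed, 13 with no filter on low values (rows at 0 throughout left out), and 11 to 28 with a sample left out, 11 without control replicate 1 and 12 without control replicate 3. With the replicate block 16 changed, and the block altered no call among the members. What caused these shifts was not tested. Depth is unknown, so counting error could not be set beside the spread between samples.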
